A study of Mus musculus with 9 samples.

Results

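Cultures of mouse embryonic fibroblasts (MEFs) on their way to induced neurons (iNs) were compared between day 7 and day 4 of reprogramming, pairing libraries by genotype. The comparison used 6 of the 9 single-cell libraries of the series, 3 of day 4 and 3 of day 7, with 1 library per genotype and day. Barcodes with at least 3000 unique molecular identifiers (UMI) and at most 20% of UMI in mitochondrial genes were kept as cells, and their counts were summed per library. This left 54058 cells, between 6399 and 11167 in a library.

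The MEFs were WT, Per1-/- (Per1tm1Drw) or Per2-/- (Per2tm1Drw), prepared from embryos of E13.5 with the head and heart removed. Every group, WT included, was transduced with lentiviruses for the BAM factors, which include Brn2 (gene symbol Pou3f2) and Myt1l, under a doxycycline-dependent promoter and grown from day 0 in serum-free N3 medium with doxycycline. Each preparation pooled embryos, and embryo sex was not determined. Cells with UMI of a Y-linked gene and none of Xist made up 18.8% and 19.2% of the WT libraries on days 4 and 7, 40.9% and 94.3% of the Per1-/- libraries, and 45.6% and 17.3% of the Per2-/- libraries. Cells with UMI of Xist and of no Y-linked gene made up 67.6% and 70.5% of the WT libraries, 42.6% and 0.0156% of the Per1-/- libraries, and 41.0% and 70.6% of the Per2-/- libraries. The mix of male and female cells thus changed far more between the days in Per1-/- and in Per2-/- than in WT. Change with time and change of embryo mix cannot be told apart within a mutant genotype, so values are given for each pair.

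MEF cultures are mixed. Fibroblasts make most of the matrix, and resident macrophages, which depend on the receptor Csf1r, take up debris and secrete complement and chemokines. Brn2 and Myt1l act in neuronal conversion of fibroblasts, Myt1l mainly as a repressor of other fates. A young neuron passes from a proneural programme to the axonal cytoskeleton and then to vesicle release. Sums over a mixed culture cannot tell more cells of a type from more RNA per cell. Cells were therefore also divided by marker genes: the macrophage gate asked for a UMI of at least 4 of Csf1r, Fcer1g, Tyrobp, Ptprc, Laptm5, Cd68, Ctss and Aif1, the neuron gate for at least 4 of Tubb3, Stmn2, Stmn3, Dcx, Snap25, Syt1, Elavl3 and Elavl4, and cells passing both (0.276% to 1.28% of a library) were left out. These gates are cuts on marker counts and not cell types read from clusters.

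The share of cells in the macrophage gate rose in each genotype from day 4 to day 7. It went from 2.37% (95% Clopper-Pearson interval 2.06 to 2.71) to 7.95% (7.38 to 8.54) in WT, from 4.82% (4.43 to 5.24) to 26.6% (25.5 to 27.7) in Per1-/-, and from 3.11% (2.75 to 3.51) to 14.2% (13.6 to 14.9) in Per2-/-. All 3 day 7 libraries lay above all 3 day 4 libraries, and the mean difference was 12.8 ± 8.23 percentage points (SD, n = 3 pairs). The intervals cover counting error only.

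The neuron gate moved the other way. Its share went from 23.4% to 14.0% in WT, from 22.3% to 6.39% in Per1-/- and from 18.3% to 12.3% in Per2-/-, a mean difference of -10.4 ± 5.06 percentage points. Neuron gate cells were shallower than the rest, with median UMI counts from 11440 to 19087 against 18341 to 30103 in cells of neither gate. Thinning each cell to 3000 UMI lowered the neuron shares to 11.4% and 8.83% in WT, 11.6% and 4.17% in Per1-/-, and 10.5% and 7.11% in Per2-/-, and the mean difference to -4.45 percentage points, still lower on day 7 in each pair. With 3 pairs an exact paired permutation test cannot give a two-sided p below 0.25, so none was read.

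**Figure D1:**
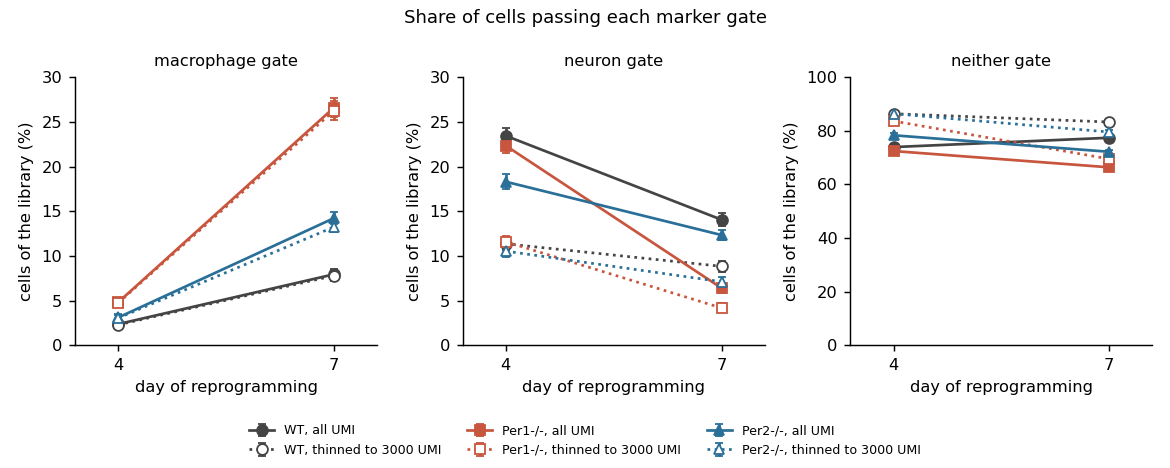
Share of cells (%) of each library in the macrophage gate, the neuron gate and neither gate on day 4 and day 7, with lines joining libraries of a genotype and bars for the 95% Clopper-Pearson interval. Filled symbols use all UMI and open symbols cells thinned to 3000 UMI; the macrophage share reached 26.6% in Per1-/- on day 7 and the neuron share fell in every pair.

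In the whole culture 854 genes were higher and 372 lower on day 7 of 18633 tested (edgeR quasi-likelihood test with genotype as block, Benjamini-Hochberg adjusted p under 0.05), which is 4.58% and 2.0% of the genes, and 6.58% in either direction. All 1226 had the same direction in the 3 genotypes, against 52.0% of all genes tested. The paired test favours genes whose change agrees among the pairs, so this is not separate evidence. At least 2-fold in each genotype were 433 of the higher and 70 of the lower genes. The p-values measure the spread of the change among the 3 pairs, since no genotype has a second library of a day. The 3 values of day 4 and the 3 of day 7 did not overlap in 35.4% of all genes tested in the whole culture. The share was 23.9% in the macrophage gate, 31.4% in the neuron gate and 32.1% in neither gate. Among the 1226 genes called in the whole culture the values did not overlap in 1180. These genes were called for change within pairs of the same libraries, so this count is not separate evidence.

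Of the 361 higher genes with a mean of at least 10 CPM (UMI counts scaled to library size with TMM factors), 202 (56.0%) had a level in macrophage gate cells at least 2 times that in both other groups of cells, 77 (21.3%) in cells of neither gate and 5 (1.39%) in neuron gate cells. Of the 230 lower genes, 137 (59.6%) were highest in neuron gate cells and 7 (3.04%) in macrophage gate cells. Over all 9204 genes at that level the shares were 7.88% for the macrophage gate, 9.16% for the neuron gate and 5.43% for neither. The gate shares moved in the same directions, and their part in the whole-culture values was not separated beyond the fits within gates below.

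The counts depended on which pairs entered. Without the Per2-/- pair no gene passed in edgeR (3911 at an unadjusted p under 0.05), without the WT pair 256 were higher and 38 lower, and in male cells alone 15 were higher and 3 lower. DESeq2 on the same sums called 1816 higher and 1308 lower. It was run without the filter on low counts, on 26415 genes, so these counts differ from those of edgeR in more than the test.

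Among the gene lists, that of macrophage lineage and receptors had the most genes that rose. Of the 26 measured genes of macrophage lineage and receptors, 23 rose and 0 fell, with a median log2 fold of 1.97 against 0.007 over all genes tested. Trem2, a lipid-sensing receptor, stood at 18.2, 56.8 and 34.0 CPM in WT, Per1-/- and Per2-/- on day 4 and at 79.6, 274 and 137 CPM on day 7, a log2 fold of 2.14 ± 0.08 (SE; edgeR adjusted p = 0.00848). The groups did not overlap, and the log2 ratio was 2.12 in WT, 2.27 in Per1-/- and 2.01 in Per2-/-. Csf1r went from 12.1, 23.4 and 16.4 to 40.8, 184 and 98.9 CPM (log2 fold 2.45 ± 0.25, adjusted p = 0.0143), and Mrc1, the mannose receptor, from 27.5, 64.8 and 37.1 to 116, 420 and 197 CPM (2.39 ± 0.13, adjusted p = 0.00848). In all 3 genes the Per1-/- library was the highest on both days. No gene of the list passed without the Per2-/- pair (median 2.04), in male cells alone (2.57) or without the genotype block (2.11). The list's members Lyz2, Marco and Siglec1 did not pass; Lyz2, which codes for lysozyme, had 1.93 on the log2 scale (adjusted p = 0.052).

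Among called genes with a mean of at least 10 CPM, the largest fold belonged to Fcgr2b, the inhibitory receptor for IgG, which went from 0.565, 2.17 and 0.731 CPM to 5.05, 49.6 and 15.8 CPM (log2 fold 4.07 ± 0.32, adjusted p = 0.0087). Trf, transferrin, followed at 3.21 ± 0.26 and Wfdc17, a secreted WAP-domain protein of myeloid cells, at 3.07 ± 0.42. Fcrls, an Fc receptor-like gene of tissue macrophages, Clec4a2, a myeloid lectin, Adgre1, the F4/80 antigen, and Aif1 rose by 2.80, 2.71, 2.53 and 2.41 on the log2 scale. Ccdc152, at 2.45, overlaps Selenop on the opposite strand, and how far their counts are separate was not tested.

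**Figure D2:**
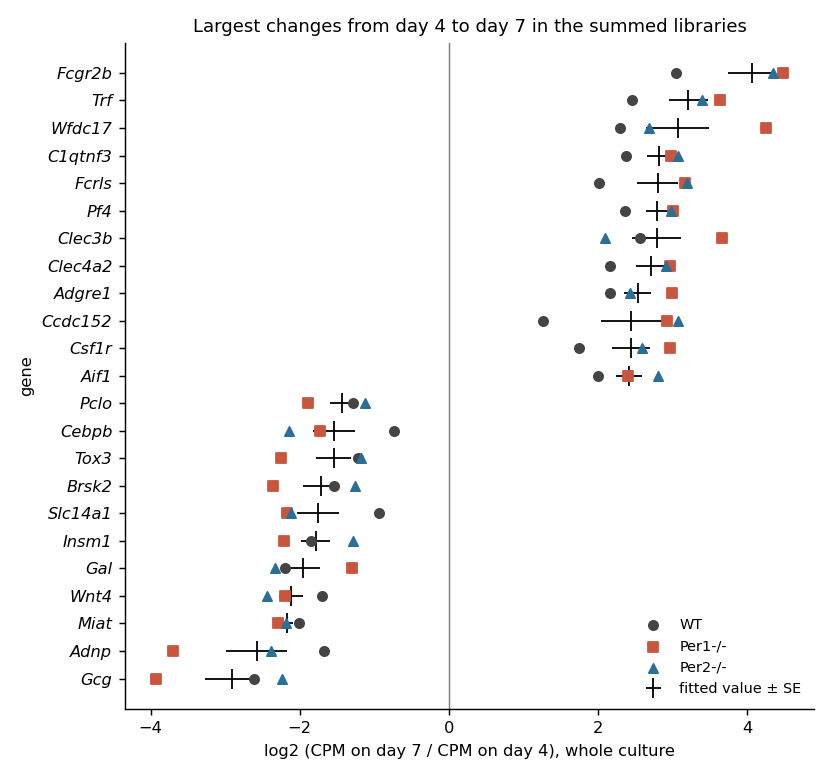
log2 ratio of CPM on day 7 to CPM on day 4 in the whole culture for the 12 genes with the largest rise and 11 of the 12 with the largest fall among genes past the threshold with a mean of at least 10 CPM; symbols are genotypes and the black mark is the fitted value ± SE. The genes were chosen for having the same direction in the 3 genotypes; Fcgr2b (4.07) and Gcg (-2.91) lie at the ends.

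Secreted immune products rose with the receptors. Of 14 measured complement genes 7 rose and 0 fell (median log2 fold 1.65): the C1q subunits C1qa, C1qb and C1qc rose by 2.29, 2.17 and 2.21, and C3ar1, the receptor of the anaphylatoxin C3a, by 1.97 ± 0.07. C1qa stood at 31.4, 87.1 and 45.6 CPM on day 4 and at 118, 531 and 231 CPM on day 7, with no overlap between the days.

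Of 30 chemokines and cytokines 10 rose and 0 fell (median 1.09). The list's median log2 ratio was 0.49 in WT, 2.09 in Per1-/- and 0.29 in Per2-/-. Its summed level went from 531, 577 and 485 CPM to 585, 1380 and 581 CPM. The difference between genotypes was not tested. Pf4, the platelet factor chemokine also made by macrophages, rose by 2.80 ± 0.16, and the inflammatory chemokines Ccl3 and Ccl4 rose by 2.31 ± 0.11 and 1.88 ± 0.15. Tnf, a cytokine named here after its values were seen, was at 1.003, 2.14 and 1.56 CPM on day 4 and 2.66, 8.10 and 1.72 CPM on day 7; the difference was 1.17 ± 0.37 on the log2 scale (adjusted p = 0.134), and the days overlapped.

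Of 29 lysosome and lipid-handling genes 12 rose and 0 fell (median 0.83), among them Ctss, a lysosomal protease and gate gene (2.05), Lpl, lipoprotein lipase (1.60 ± 0.11), and Plin2, which coats lipid droplets (0.68 ± 0.08). Of 15 genes of MHC class I and II 5 rose and 0 fell (median 0.85), with B2m, the light chain of class I, from 363, 446 and 359 to 535, 841 and 730 CPM.

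Of 41 interferon response genes 1 passed, Irf8, a transcription factor of myeloid cells (2.24 ± 0.17), and the list's median log2 ratio was -0.14 in WT, 0.50 in Per1-/- and 1.62 in Per2-/-. The difference between genotypes could not be tested with 1 pair of each.

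Within the macrophage gate no gene passed in either direction (0 of 13772, 0.0%) in edgeR, although 2266 had an unadjusted p under 0.05. The lowest adjusted p in edgeR was 0.122. DESeq2, run on 21559 genes without the filter on low counts, called 163 higher and 153 lower. The macrophage lineage list, leaving out the gate genes, had a median log2 fold of 0.03 over 19 genes there, the complement list 0.23 and the lysosome list -0.03. Trem2 was at 571, 897 and 796 CPM of macrophage gate cells on day 4 and at 780, 937 and 780 CPM on day 7, so that the days overlapped (log2 fold 0.16 ± 0.12). C1qa was at 998, 1386 and 1081 CPM and then at 1137, 1822 and 1330 CPM, with overlap (0.29 ± 0.09). The mannose receptor Mrc1 and the F4/80 antigen Adgre1 lay higher on day 7 in each genotype without passing the test. Mrc1 was at 862, 1034 and 885 CPM and then at 1130, 1447 and 1142 CPM, without overlap (0.41 ± 0.08, adjusted p = 0.187). Adgre1 was at 232, 265 and 254 CPM and then at 333, 453 and 333 CPM, also without overlap (0.56 ± 0.10, adjusted p = 0.18).

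Fcgr2b did not pass within the gate either; it was at 18.6, 33.5 and 17.3 CPM on day 4 and 49.4, 170 and 90.7 CPM on day 7 with no overlap (log2 fold 2.07 ± 0.21, adjusted p = 0.122). Pf4 was at 134, 190 and 203 CPM and then at 233, 340 and 392 CPM, also without overlap (0.86 ± 0.08, adjusted p = 0.122). Other members of the chemokine and cytokine list were lower on day 7 in each genotype, among them Spp1 (-0.85 ± 0.14) and Il1rn (-1.58 ± 0.24). Neither passed. The list had a median log2 fold of 0.19 in this gate. Its summed level went from 2761, 3487 and 2895 CPM to 2213, 2948 and 1979 CPM. Hmox1, heme oxygenase, was lower too, from 260, 255 and 280 CPM to 161, 144 and 142 CPM (-0.83 ± 0.09, adjusted p = 0.122). Without the Per2-/- pair 10 genes were higher and 11 lower in this gate.

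Macrophage RNA was also found outside the gate. The 15 macrophage markers summed to 16992 to 18591 CPM of macrophage gate cells on day 4 and to 15917 to 24963 CPM on day 7. They include the 8 gate genes. The gap in level between cells inside and outside the gate is therefore partly set by the cut and is not a result. In cells of neither gate their sum was 24.8, 39.5 and 19.1 CPM on day 4 and 29.5, 74.9 and 85.1 CPM on day 7, and in neuron gate cells 26.7, 45.5 and 21.2 CPM and then 32.1, 80.5 and 91.9 CPM. The sums outside the gate were higher on day 7 in each genotype, at under 1% of the level inside it. Of the macrophage lineage list 0 of 25 genes passed in cells of neither gate. In neuron gate cells 1 of 18 passed (Coro1a, an actin-binding protein, 1.26 ± 0.18), and which cells its RNA came from was not tested. Chemokine and cytokine RNA was not limited to the macrophage gate. In cells of neither gate that list summed to 542, 461 and 442 CPM on day 4 and to 453, 748 and 321 CPM on day 7. Of its 17 genes measured in neuron gate cells 3 rose (Ccl8, Ccl11 and Cxcl10). Whether the macrophage markers outside the gate come from free RNA or from single cells, and which cells the chemokines come from, was not tested.

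**Figure D3:**
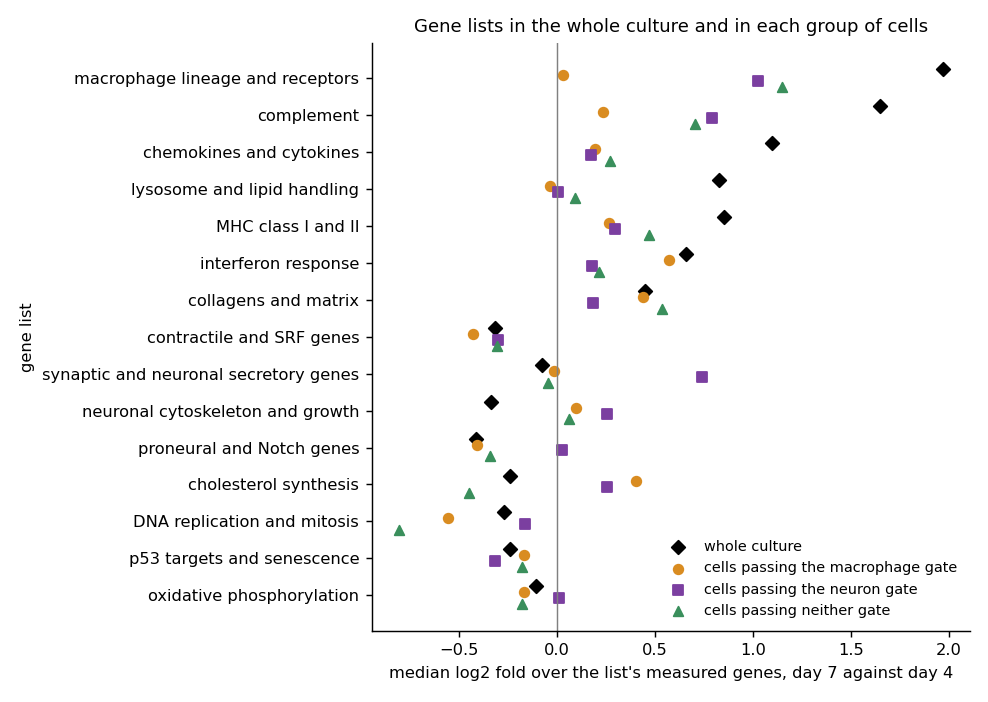
Median log2 fold (day 7 against day 4) over the measured genes of 15 gene lists in the whole culture, macrophage gate, neuron gate and neither gate; gate genes are left out of their own gate. The macrophage list lies at 1.97 in the whole culture and 0.03 within the macrophage gate, and the synaptic list at -0.08 in the whole culture and 0.74 within the neuron gate.

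Transcripts of the reprogramming factor Pou3f2 fell. It went from 761, 524 and 584 CPM on day 4 to 328, 169 and 284 CPM on day 7 in the whole culture (log2 fold -1.30 ± 0.13, adjusted p = 0.0143), and the days did not overlap. Myt1l was at 15.1, 8.17 and 11.8 CPM and then at 21.6, 9.44 and 10.6 CPM, with overlap (0.19 ± 0.15, adjusted p = 0.463). Reads of a transgene and of the mouse gene cannot be told apart in these counts.

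In cells of neither gate Pou3f2 fell by 1.45 ± 0.12 on the log2 scale (adjusted p = 0.0352). In neuron gate cells, where its level was higher, it was at 1756, 1641 and 1985 CPM and then 1567, 1383 and 1288 CPM (-0.34 ± 0.11, adjusted p = 0.166). Myt1l was at 63.2, 39.6 and 68.5 CPM of neuron gate cells and then at 155, 147 and 73.1 CPM, without overlap and not past the threshold (1.09 ± 0.33, adjusted p = 0.137), and had a log2 fold of -0.04 ± 0.31 in cells of neither gate. The difference between these groups of cells was not tested.

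Proneural and Notch genes fell too. In the whole culture 8 of 25 measured genes fell and 1 rose (median log2 fold -0.41). Those that fell were Hes6 (-1.18 ± 0.08), a HES relative that favours neurogenesis, Zbtb18 (-0.93 ± 0.08), a zinc-finger repressor, the Notch ligands Dll1 (-1.03 ± 0.11) and Dll3 (-1.37 ± 0.15), the neuroendocrine factor Insm1 (-1.78 ± 0.19), the SoxC factors Sox11 (-1.18) and Sox4 (-0.68), and Id3 (-0.63), an inhibitor of bHLH factors. Neurod1, a later bHLH factor, rose by 1.96, from a level of 0.138 to 0.236 CPM on day 4 to 0.628 to 0.844 CPM on day 7.

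Proneural bHLH dimers bind E-boxes, and 1 such core is CAGCTG, which reads the same on both strands. RefSeq promoters (mm10, GRCm38.p6; from 250 bases before to 50 after a gene start) were held for 7 of the 8 genes that fell; 6 of them had this core in at least 1 promoter, against 18.3% of all 27025 genes with a promoter in the table. Of all 26 genes of the list 21 had a promoter and 10 of these had the core. Hes6 and Dll1 have 2 promoters in the table and Dll3 has 1. Genes with several promoters had more chances to hold it, and a match is a run of letters and not a bound site. A promoter of each of 3 genes that fell is shown 5′ to 3′ on the gene's strand with the core in capitals: Hes6, chr1:91413173-91413472, minus strand, core starting 150 bases before the RefSeq start of that promoter; Dll3, chr7:28301736-28302035, minus strand, core starting 7 bases before its start; and Dll1, chr17:15376883-15377182, minus strand, core starting 132 bases before its start. The windows of Hes6 and Dll3 lie inside the gene as GENCODE annotates it, whose outermost starts are at 91414038 and 28302238, so these are not the outermost start sites.
Hes6: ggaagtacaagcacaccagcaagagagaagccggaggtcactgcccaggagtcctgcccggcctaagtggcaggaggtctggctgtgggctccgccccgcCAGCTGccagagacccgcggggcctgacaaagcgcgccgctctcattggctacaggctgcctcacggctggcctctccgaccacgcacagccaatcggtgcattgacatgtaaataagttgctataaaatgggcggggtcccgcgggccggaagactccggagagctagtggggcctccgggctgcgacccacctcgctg
Dll3: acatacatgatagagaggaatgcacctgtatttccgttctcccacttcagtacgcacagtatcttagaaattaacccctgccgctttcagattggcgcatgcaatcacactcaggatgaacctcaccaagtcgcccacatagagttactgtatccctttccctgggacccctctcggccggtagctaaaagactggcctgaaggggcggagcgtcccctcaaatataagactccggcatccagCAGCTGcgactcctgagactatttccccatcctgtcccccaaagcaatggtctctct
Dll1: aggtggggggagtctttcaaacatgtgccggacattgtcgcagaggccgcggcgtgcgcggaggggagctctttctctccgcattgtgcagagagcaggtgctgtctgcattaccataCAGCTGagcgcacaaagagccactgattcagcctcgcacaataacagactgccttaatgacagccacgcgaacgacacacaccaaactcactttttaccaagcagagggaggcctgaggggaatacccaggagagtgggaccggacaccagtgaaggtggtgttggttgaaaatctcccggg

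These 3 genes differed in level and moved alike. Hes6 stood at 121, 113 and 99.0 CPM in WT, Per1-/- and Per2-/- on day 4 and at 56.5, 44.4 and 46.3 CPM on day 7. Dll3 went from 92.8, 73.8 and 60.8 to 44.1, 21.4 and 25.4 CPM, and Dll1 from 12.5, 9.65 and 8.73 to 5.47, 5.17 and 4.35 CPM. None overlapped between the days in the whole culture.

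Among neuron gate cells 6 of 25 genes of the list fell and 1 rose, while the median of the list was 0.03 there. Hes6 was at 341, 359 and 333 CPM of these cells on day 4 and at 177, 217 and 137 CPM on day 7 (log2 fold -0.98 ± 0.12, adjusted p = 0.0256). Sox11 fell by 0.75 ± 0.10, Insm1 by 0.82 ± 0.11 and Zbtb18 by 0.73 ± 0.10 on the log2 scale, and Dll3 and Sox4 were the others that fell. Neurod1 rose from 1.15, 0.987 and 0.92 CPM to 6.69, 10.3 and 6.06 CPM (2.88 ± 0.24, adjusted p = 0.0161). In cells of neither gate 3 of 23 fell (Dll3, Hes6 and Zbtb18) and 0 rose.

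Genes of the mature neuron rose within the neuron gate while the gate shrank. There 329 genes were higher and 148 lower of 15600 tested (2.11% and 0.949%, or 3.06% in either direction). All had the same direction in the 3 genotypes, which the paired test favours. Of 22 measured synaptic and secretory genes 10 rose and 0 fell, with a median log2 fold of 0.74 against 0.005 over all genes tested. Scg2, a secretogranin of dense-core vesicles, was at 29.995, 24.9 and 32.1 CPM on day 4 and at 110, 114 and 112 CPM on day 7 (1.96 ± 0.10, adjusted p = 0.00631). Scg3, a granin, rose by 1.18 ± 0.07 and Syt4, a synaptotagmin, by 0.96 ± 0.08. Others that rose were the vesicle proteins Syp and Sv2a, the complexins Cplx1 and Cplx2, which act in vesicle fusion, and Nrxn3, a presynaptic adhesion molecule.

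Markers of other cells rose in the neuron gate beside these lists. Of 8 Schwann cell markers 3 rose (Erbb3, Cdh19 and S100b; median 1.31), of 7 astrocyte markers 1, S100b again (median 1.03), and of 21 sarcomere and myogenic genes 2, Myod1 and Actc1 (median 0.66); with a gate of 5 genes Actc1 had a log2 fold of -0.0495. The 13 fibroblast markers summed to 6046, 6259 and 4470 CPM of neuron gate cells on day 4 and to 6389, 5741 and 9376 CPM on day 7, so that the sum was higher in WT and Per2-/- and lower in Per1-/-. The part of these markers in the rise of neuronal genes was not tested.

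Of the 16 cytoskeletal and growth genes outside the gate, 5 rose and 0 fell (median 0.26). The list's median log2 ratio was 0.40 in WT, 0.40 in Per1-/- and 0.0005 in Per2-/-. Mapt, which codes for tau, went from 50.3, 58.6 and 72.2 to 211, 240 and 209 CPM (1.88 ± 0.13, adjusted p = 0.00952). Gap43, a growth cone protein, went from 32.3, 38.4 and 45.2 to 133, 118 and 113 CPM (1.66 ± 0.14, adjusted p = 0.0161), and Stmn4, a stathmin, and Tagln3 rose by 1.54 and 0.93. The neurofilament gene Nefl was the fifth (1.13).

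Among called genes with a mean of at least 10 CPM, the largest rises of the neuron gate were in Car3, a carbonic anhydrase (3.48 ± 0.20), Snhg11, a small nucleolar RNA host gene (3.12 ± 0.11), Nts, the neuropeptide neurotensin (2.81 ± 0.23), L1cam, an axonal adhesion molecule (2.70 ± 0.16), and Caly, a vesicle protein of neurons (2.37 ± 0.21). Snhg11 was at 16.4, 26.5 and 20.1 CPM on day 4 and at 131, 208 and 210 CPM on day 7. Nts was at 78.0, 31.4 and 54.9 CPM and then at 389, 353 and 344 CPM. L1cam overlaps Arhgap4 on the same strand, so their counts are not fully separate.

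Genes of other programmes also moved in neuron gate cells. Of 24 cholesterol synthesis genes 3 rose and 0 fell (median 0.26): they include the synthesis enzymes Hmgcs1 (0.59 ± 0.08) and Cyp51 (0.51 ± 0.08). Of 22 p53 targets and senescence genes 6 fell and 0 rose (median -0.31), among them Trp53inp1 (-0.62 ± 0.07), Ccng1 (-0.70 ± 0.08) and Gadd45g (-0.72 ± 0.09). The 37 genes of DNA replication and mitosis gave 0 calls there, and their median of -0.16 changed sign without the WT pair (0.0084), without the Per1-/- pair (0.12) and in male cells (0.41).

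In the whole culture the same neuronal lists gave few calls. Of 24 synaptic genes 1 rose (Scg2, 1.72 ± 0.17) and 0 fell, and of 20 cytoskeletal genes Mapt rose (0.96 ± 0.18) while the tubulins Tubb3 (-1.04 ± 0.15) and Tubb2b (-0.69 ± 0.11) fell. Scg2 and Mapt were higher on day 7 and the share of neuron gate cells was lower, and how the share bears on these genes was not tested.

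The neuron gate counts rested on the gate and on the pairs. With a gate of 3 genes 13 genes were higher and 1 lower, without the WT pair 0 passed in edgeR (2014 at an unadjusted p under 0.05) and without the Per1-/- pair 57 and 17; without the Per2-/- pair 1136 were higher and 832 lower, and in male cells 476 and 362. No synaptic gene passed without the WT pair or with the gate of 3. The median of the synaptic list stayed between 0.65 and 0.84 in all these fits. In WT 445 of 2059 cells of the neuron gate on day 4 had exactly 4 gate genes, and 191 of 1260 on day 7. In Per1-/- these were 409 of 2476 and 56 of 450, and in Per2-/- 287 of 1546 and 277 of 1520. These numbers include cells passing both gates. The part of cells near the cut in the rise of neuronal genes was not tested.

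**Figure D4:**
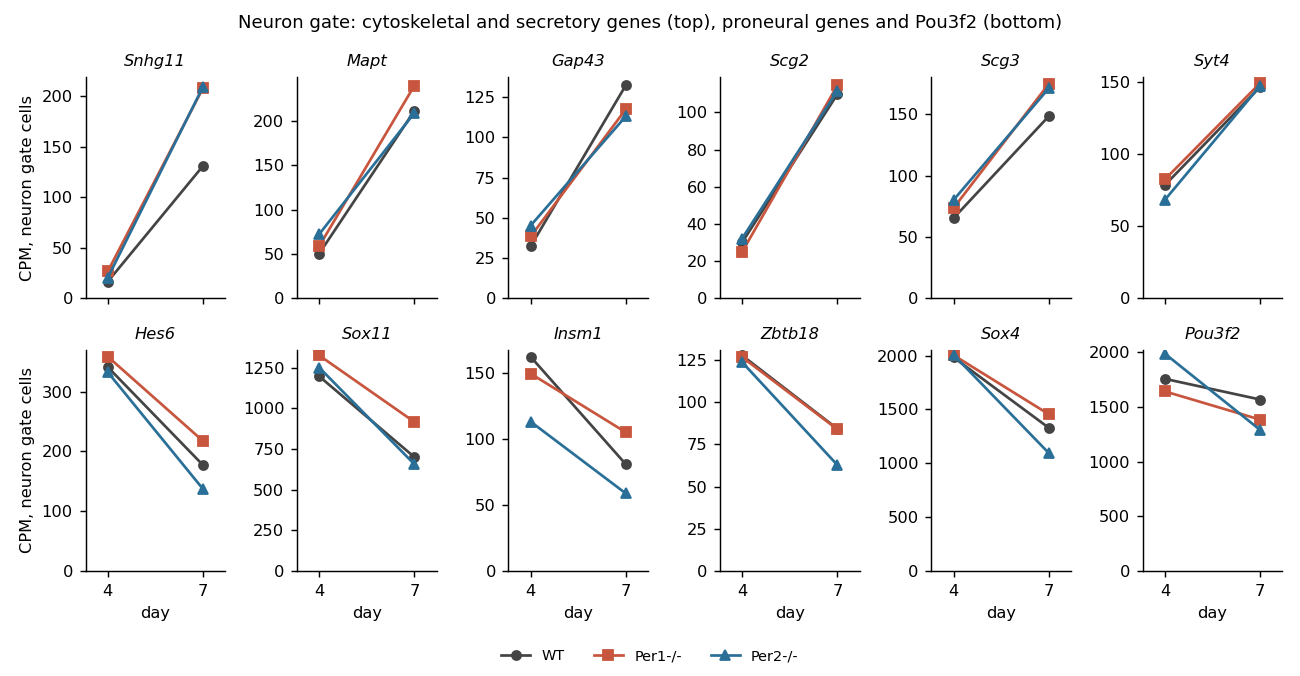
CPM of neuron gate cells on day 4 and day 7, one line per genotype, for 6 genes that rose (top row; Snhg11, Mapt, Gap43, Scg2, Scg3 and Syt4) and for Hes6, Sox11, Insm1, Zbtb18, Sox4 and Pou3f2 (bottom row); each vertical axis starts at 0. Every line rises in the top row, with Scg2 at 24.9 CPM in Per1-/- on day 4 and 114 CPM on day 7, and falls in the bottom row, where Pou3f2 had an adjusted p of 0.166.

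Cells of neither gate made up 73.9% and 77.4% of the WT libraries, 72.4% and 66.4% of the Per1-/- libraries and 78.3% and 72.2% of the Per2-/- libraries on days 4 and 7. Their 13 fibroblast markers summed to 15718 to 18547 CPM on day 4 and 23775 to 27523 CPM on day 7. In these cells 118 genes were higher and 106 lower of 17681 tested (0.667% and 0.6%, or 1.27% in either direction). Of the 118, 115 were also higher in the whole culture (97.5% of the 118 and 13.5% of the whole-culture list); of the 106, 65 were also lower there (61.3% and 17.5%). These cells are part of the whole-culture sums and hold most of their UMI, so this overlap is not independent.

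Matrix genes rose in them. Of 30 collagens and matrix genes 5 rose and 0 fell, with a median log2 fold of 0.54 against 0.009 over all genes tested. Fmod, a small proteoglycan that binds collagen fibrils, went from 12.2, 21.1 and 14.9 CPM to 35.0, 75.0 and 50.4 CPM (1.70 ± 0.09, adjusted p = 0.0303), and Dcn, decorin, from 829, 777 and 578 CPM to 1764, 2046 and 1548 CPM (1.30 ± 0.09, adjusted p = 0.0347). Lox, which cross-links collagen, rose by 0.79 ± 0.08 and Ogn, osteoglycin, by 0.78 ± 0.09, and Col16a1 was the fifth. The main fibrillar collagen chains were near the threshold: Col1a2 had a log2 fold of 0.60 ± 0.08 and Col3a1 of 0.51 ± 0.07, both with an adjusted p of 0.0545.

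The genes with the largest rises, among called genes with a mean of at least 10 CPM, were C1qtnf3, Clec3b, Chrdl1, Pi15 and Cpz. C1qtnf3, a C1q and TNF related protein, went from 16.5, 23.5 and 11.8 CPM to 91.3, 204 and 105 CPM (2.92 ± 0.16), Clec3b, tetranectin, from 7.43, 5.83 and 7.99 to 45.1, 79.8 and 37.7 CPM (2.87 ± 0.33), and Chrdl1, a BMP antagonist, from 3.95, 6.39 and 3.84 to 18.0, 20.4 and 19.0 CPM (2.05 ± 0.15). Pi15, a secreted CAP family protein, and Cpz, a carboxypeptidase, rose by 2.04 and 1.97. The IGF-binding proteins Igfbp2 and Igfbp7 rose by 0.88 ± 0.09 and 0.72 ± 0.08, and of the Wnt and BMP list Rspo3, a Wnt agonist, and the receptor Fzd1 rose by 0.65 and 0.77 while Wnt4 fell by 2.36 ± 0.17 on the log2 scale.

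Cell-cycle genes fell in the same cells. Of 37 genes of DNA replication and mitosis 13 fell and 0 rose (median -0.81). Mki67, a proliferation antigen, went from 44.5, 55.1 and 68.9 CPM to 24.9, 25.9 and 36.3 CPM (-0.95 ± 0.07), Cdc20, an activator of the anaphase-promoting complex, from 16.8, 17.0 and 20.3 to 7.28, 6.60 and 9.83 CPM (-1.21 ± 0.09), and Birc5, survivin, from 31.9, 37.8 and 38.8 to 13.3, 12.3 and 17.8 CPM (-1.34 ± 0.12), each with an adjusted p of 0.0352. Aurka, a mitotic kinase, fell by 1.29 ± 0.11 on the log2 scale. In the whole culture 5 of the 37 fell (median -0.27), and in the macrophage gate all 37 had a negative log2 fold with a median of -0.56, none past the threshold; the list's median there was 0.07 in WT, -0.65 in Per1-/- and -1.09 in Per2-/-.

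The cholesterol synthesis list had 3 genes lower in these cells and 3 higher in neuron gate cells, and the difference was not tested. In cells of neither gate 3 of 24 fell and 0 rose (median -0.45): they include the synthesis enzymes Msmo1, which fell by 0.68 ± 0.07, and Pmvk, which fell by 0.57 ± 0.06 on the log2 scale. Msmo1 was at 59.4, 59.9 and 71.9 CPM on day 4 and at 34.2, 40.9 and 44.9 CPM on day 7. In neuron gate cells Msmo1 had a log2 fold of 0.41 ± 0.07 (adjusted p = 0.0533), and 24 genes of the list had a median of 0.26.

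**Figure D5:**
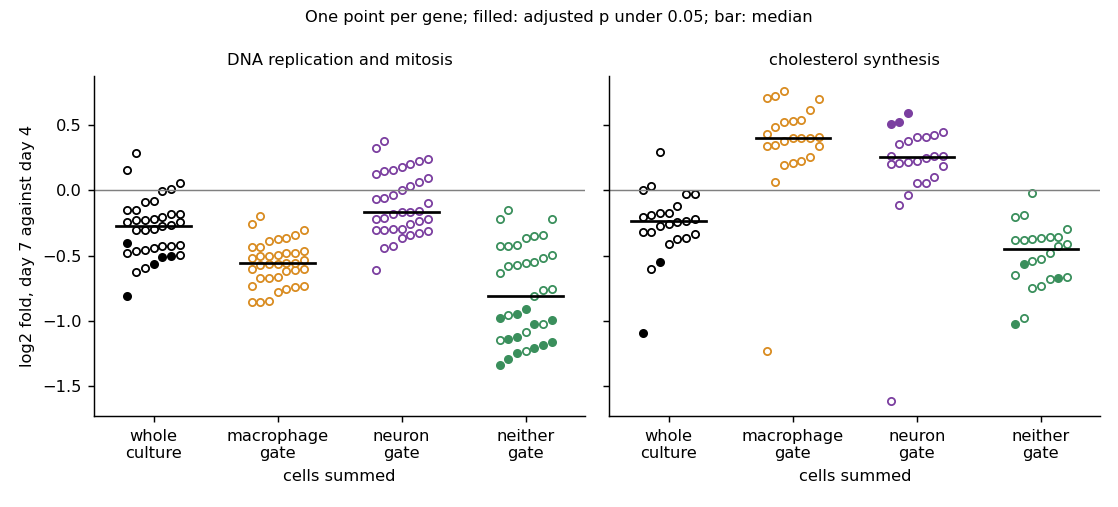
log2 fold (day 7 against day 4) of each gene of the DNA replication and mitosis list (left) and the cholesterol synthesis list (right) in the whole culture and the 3 groups of cells; filled points have an adjusted p under 0.05 and bars are medians. In cells of neither gate the medians are -0.81 and -0.45, and in the neuron gate the cholesterol median is 0.26.

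No gene passed in cells of neither gate without the WT pair or without the Per2-/- pair (2928 and 3719 at an unadjusted p under 0.05, edgeR), so that 0 of the 13 mitosis genes did; without the Per1-/- pair 278 were higher and 195 lower. DESeq2, run on 25649 genes without the filter on low counts, called 1072 higher and 1174 lower, and male cells alone gave 27 and 32. The mitosis list's median lay between -0.98 and -0.66 in all 10 fits of these cells.

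Contractile genes fell in the whole culture. Of 17 genes of the contractile and SRF list 4 fell and 1 rose, with a median of -0.32. Acta2, smooth muscle actin, went from 331, 469 and 377 CPM to 156, 182 and 244 CPM (-1.03 ± 0.15, adjusted p = 0.0313), and Tagln from 293, 370 and 336 to 178, 216 and 250 CPM (-0.64 ± 0.09, adjusted p = 0.0304); Cnn1 and Lmod1 were the others, and Mylk, the myosin light chain kinase, rose by 0.56. In cells of neither gate none of the 17 passed, and Acta2 had a log2 fold of -0.96 ± 0.14 (adjusted p = 0.0587).

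Some glial markers rose. Of 9 Schwann cell markers 6 rose and 0 fell in the whole culture (median 0.82), among them Sox10, the glial transcription factor, from 5.24, 3.99 and 7.65 CPM to 11.4, 10.1 and 12.5 CPM (1.06 ± 0.15, adjusted p = 0.0289), and Erbb3, the neuregulin receptor (1.21 ± 0.14). The summed level of the list went from 294, 173 and 124 CPM to 266, 153 and 249 CPM, so that the sum and the median differed in sign in WT and Per1-/-. Of 7 astrocyte markers 3 rose and 0 fell: Aqp4, the glial water channel, by 1.06 ± 0.08, Gfap, the astrocyte filament, by 1.42 ± 0.22 and S100b, which both lists hold, by 1.62 ± 0.28. The days overlapped for Aqp4 and Gfap, whose Per2-/- libraries were the lowest on both days. Without the WT pair none of the 9 Schwann markers passed (median 0.92), nor without the Per2-/- pair (0.84).

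The falls of Gcg and Miat, among the largest of the whole culture in called genes with a mean of at least 10 CPM, were also called in 2 groups of cells. Gcg, which codes for proglucagon, went from 35.4, 21.1 and 15.7 CPM to 5.74, 1.35 and 3.29 CPM (-2.91 ± 0.36, adjusted p = 0.0204), with log2 folds of -1.43 in the neuron gate and -3.58 in neither gate, both past the threshold. Miat, a long noncoding RNA, went from 174, 161 and 146 CPM to 42.9, 32.8 and 32.2 CPM (-2.16 ± 0.08, adjusted p = 0.00848), with -1.42 in the neuron gate and -1.76 in neither gate, again both past it. Adnp, a homeodomain factor, went from 34.5, 30.6 and 14.2 CPM to 10.8, 2.30 and 2.68 CPM (-2.58 ± 0.42, adjusted p = 0.0366).

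Adnp had nearly the same log2 fold in each group of cells, -2.30 in the macrophage gate, -2.45 in the neuron gate and -2.45 in neither gate, of which only the neuron gate value passed. Cebpb, a bZIP factor, also had like values, -1.75, -1.73 and -1.74, and again only the neuron gate value passed. In the whole culture its log2 ratio was -0.73 in WT, -1.72 in Per1-/- and -2.15 in Per2-/-. Its day 4 value there of 39.7 CPM in Per2-/- lay below its day 7 value of 42.2 CPM in WT. Ppp2cb, a catalytic subunit of phosphatase 2A, fell in the neuron gate (-1.82 ± 0.26) and had -1.77 ± 0.34 in the whole culture (adjusted p = 0.0539).

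The remaining falls were in Wnt4 (-2.12), Gal, the neuropeptide galanin (-1.96), Insm1, Slc14a1, a urea transporter (-1.75), Brsk2, a kinase of neuronal polarity (-1.72), Tox3 (-1.55) and Pclo, a presynaptic scaffold (-1.43). The level of Gal in neuron gate cells was 52.3, 57.8 and 89.5 CPM on day 4 and 32.8, 97.6 and 21.3 CPM on day 7, with overlap (-0.66 ± 0.51, adjusted p = 0.522), and in the macrophage gate it was 43.2, 26.5 and 6.13 CPM and then 0.15, 0.386 and 0.324 CPM (adjusted p = 0.122). The difference between these groups of cells was not tested.

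Several programmes showed no called gene in the whole culture: 26 genes of oxidative phosphorylation (median -0.11), 17 of the unfolded protein response (0.17), 18 of the NRF2, metal and glutathione list (0.08), 21 matrix proteases and inhibitors (0.21) and 23 sarcomere and myogenic genes (0.32). Of 19 clock genes 1 rose, Bhlhe41 (1.16 ± 0.16). Per1 and Per2 had log2 folds of 0.05 and -0.03; counts from the 3′ end of these transcripts do not test the deletions. The Y-linked genes and Xist gave 0 calls, with log2 folds from -1.01 to -0.05 whose standard errors reached 2.56.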

How the data were processed

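Single-cell libraries of MEFs under BAM reprogramming were made with 10x 3′ chemistry. The deposited values are UMI counts per gene and barcode, which the authors made with Cell Ranger on mm10 (version 7.1 per the submitters' processing notes, 4.0.0 per the file headers of days 4 and 7). Barcodes were filtered by the study's fixed cutoffs on UMI and mitochondrial share, without its further filter on low feature numbers (quickPerCellQC), and counts were summed per library and per gate. Sums held 164493242 to 350949505 UMI, and median UMI per cell was 17684.5 to 28744. Kept barcodes shared by 2 libraries numbered 11 to 35.

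Genes passing filterByExpr were tested with edgeR 4.0.16 (R 4.3.3) using TMM factors and genotype plus day, with 2 residual degrees of freedom. Genotype takes the place of a replicate number, which the labels do not give. SE is the log2 fold divided by the root of F. Ratios per genotype add 0.05 CPM. On simulated counts for this comparison (18633 genes) 99% of genes changed by a log2 fold of 1 and 42% of those changed by 0.58 were recovered, with 2.76% false calls. The simulation gave every gene the same dispersion, had no difference between genotypes and left genes of the lowest levels unchanged. Its rates therefore do not describe the spread among the real pairs. Alternatives were DESeq2 1.42.0, other filters and gates, doublets left out by Scrublet score (scanpy 1.11.5; 0.8% per 1000 barcodes), male cells, and each pair left out, since with genotype as a block a lone library of a pair adds nothing to the contrast.

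Members and gene lists were chosen with earlier results of these data known. Named genes are, of those past 0.05 with the same direction in 3 genotypes and a mean of at least 10 CPM, the 12 largest per direction in the whole culture and 5 per gate, and of each list up to 4 members of at least 5 CPM with the smallest p. Other members named beside a list's count, and values of a named gene in other gates, were chosen after they were seen. Lists are described by counts and medians with no set test. Promoters are from RefSeq. Some genes that these rules name are not reported here.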

Additional observations from a re-analysis of the deposited data

Results flagged for a closer look

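The median log2 ratio of the 7 mesothelial markers differed in sign between genotypes in the whole culture, at -1.19 in WT, 1.22 in Per1-/- and -0.79 in Per2-/-, a span of 2.41. Of the 7, Krt8, an epithelial keratin, fell (-1.68 ± 0.22), with the same direction in each genotype. The summed level of the 7 markers was 17.3, 14.7 and 21.8 CPM on day 4 and 7.90, 32.9 and 9.24 CPM on day 7. The difference between genotypes was not tested, since each genotype has 1 pair.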

How the results depend on the processing

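Each count of genes higher and lower on day 7 was recomputed under alternatives. DESeq2 was run without the filter on low counts, so its counts are over more genes than those of edgeR. The pairing by genotype entered as a block. In the whole culture (854 and 372) no block gave 45 and 21, DESeq2 1816 and 1308, male cells 15 and 3, and all 9 libraries 594 lower; leaving out 1 pair gave 0 to 799 higher and 0 to 269 lower. In the macrophage gate (0 and 0) DESeq2 gave 163 and 153, male cells 3 and 2, and leaving out 1 pair 0 to 10 and 0 to 11. In the neuron gate (329 and 148) no block gave 747 and 446, DESeq2 635 and 458, a gate of 3 genes 13 and 1, a gate of 5 genes 549 and 324, leaving out doublets 376 lower, male cells 362 lower, and leaving out 1 pair 0 to 1136 and 0 to 832. In neither gate (118 and 106) no block gave 207 and 200, DESeq2 1072 and 1174, male cells 27 and 32, and leaving out 1 pair 0 to 278 and 0 to 195. Thinning moved the mean difference in neuron share from -10.4 to -4.45 percentage points. A change of sign was counted only for named genes that passed in the main or the alternative fit. There was 1, Actc1 in the neuron gate with a gate of 5 genes (log2 fold -0.0495). Among the whole-culture genes 368 of the recomputed values lost the call and 94 gained it, with the same direction in all. The cause of these changes was not tested, except that leaving out a pair or a sex leaves fewer libraries or cells. The macrophage gate held 206 to 525 cells a library on day 4, and 199 to 517 after thinning.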
